A study of Danio rerio with 3 samples.

Results

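The genes described here are transcription factors that divide the early neural plate into forebrain, midbrain and hindbrain. They were chosen by symbol as regulators of these regions, with earlier results of these data known. Of the 35117 genes in the table, 9 matched. The deposited symbol equalled the listed name for 7 of them (hesx1, fezf2, otx2, gbx1, gbx2, egr2b and mafba). The remaining 2 were found through RefSeq synonyms: otx1 is deposited as otx1b and eng2b as en2b. RNA came from whole, untreated wild-type zebrafish embryos of a wild-type cross, freed of their chorions by hand. The 10 hpf group (hours post fertilization, when gastrulation ends) had 2 libraries, and the 6 hpf group (when it begins) had 1 library. The sources used here do not state how many embryos were pooled.

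During gastrulation the neural plate acquires a head-to-tail pattern from gradients of secreted signals, and regional transcription factors record that pattern. In vertebrates, Otx factors mark the forebrain and midbrain and Gbx factors the anterior hindbrain, and their mutual repression sets the midbrain-hindbrain boundary. Engrailed factors mark that boundary, and segment genes such as egr2b and mafba subdivide the hindbrain into rhombomeres.

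Each gene had 1 RPKM value per stage (read number divided by gene length and by library size), with the 10 hpf value given over both libraries, so no spread between libraries can be stated. The sources used here do not state how that value was made from its libraries. RPKM is per gene length, and levels can therefore be set side by side between genes. The steps between low values give fitted totals of 23243189 reads for 10 hpf and 16991529 for 6 hpf. A level of 1 RPKM thus equals 23.2 reads per kilobase at 10 hpf and 17.0 at 6 hpf. Intervals below are exact Poisson intervals at 95%. They use the smallest whole read numbers that give the deposited values for a gene of at least 700 bases, and they cover counting error only. For 10 hpf they assume that the value is a single total of reads. A gene is called where the authors' deposited table gives an empirical false discovery rate under 0.05. Because the RNA came from whole embryos, a change in the number of cells that use a gene and a change in RNA per cell cannot be told apart. All 21 marker genes checked for axial and paraxial mesoderm, endoderm, neural ectoderm, epidermis, yolk syncytial layer and germ cells had reads at both stages. Of these markers, 6 were called higher (tbx6, myod1, myf5, shha, tp63 and apoa2). A further 7 were called lower (ta, sox32, sox3, cdh1, mxtx2, ddx4 and nanos3), and 8 had no call. After centring on the median gene, 5 of the lower calls were kept, and those of sox3 and nanos3 were not. All 21 reached 1 RPKM at either stage. Among all genes at that level, 16.3% were called higher and 32.9% lower. The neural ectoderm markers sox2 and sox19a were not called, at 56.9 and 168.2 RPKM at 10 hpf and 55.5 and 204.8 RPKM at 6 hpf, and sox3 was called lower before centring, at 97.1 RPKM at 10 hpf and 134.5 RPKM at 6 hpf. The part of any shift between tissues in the changes below was not tested.

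At 10 hpf, 7 of the 9 genes were called higher than at 6 hpf, 0 were called lower and 2 were not called. In the whole table, 29.5% of genes were called, 9.70% higher and 19.8% lower. Among the 17494 genes that reached 1 RPKM at either stage, 16.3% were called higher and 32.9% lower. The called genes span the axis, from fezf2 in the forebrain to mafba in the hindbrain. The exceptions were hesx1, at similar levels at both stages, and en2b, at the level of a single read. Of the 9 genes, 8 reached 1 RPKM at 10 hpf and 4 did so at 6 hpf, and 4 were listed at 0 at 6 hpf.

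**Figure D1:**
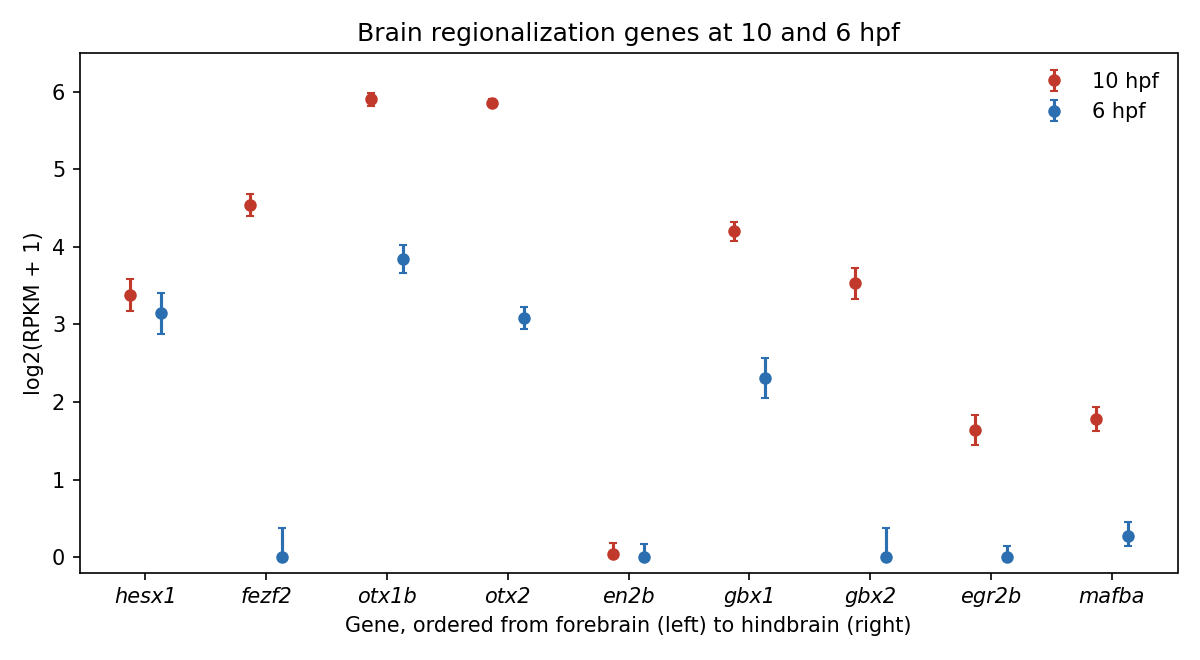
Level of each gene as log2(RPKM + 1) at 10 hpf (red) and 6 hpf (blue), ordered from forebrain to hindbrain, with 1 value per stage. Bars are the 95% Poisson intervals described above, which cover counting error only. The Otx genes are highest at 10 hpf at 58.8 and 56.8 RPKM, and en2b is lowest at that stage. At 6 hpf en2b shares the bottom with fezf2, gbx2 and egr2b, all listed at 0.

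The forebrain genes differed from each other in their listed values at 6 hpf. The homeobox repressor gene hesx1 (ENSDARG00000054509), an early marker of the anterior neural plate, had 9.42 RPKM at 10 hpf and 7.85 RPKM at 6 hpf. The ratio of these values was 1.20, and its interval of 0.929 to 1.56, which covers counting error only, includes no change. That interval uses the smallest of 60 candidate lengths, with 161 reads at 10 hpf and 98 at 6 hpf. Larger candidates would narrow it, so whether it includes no change depends on this choice. The direction for hesx1 depends on the scaling: the authors' deposited table gives a log2 fold of −0.32, while the log2 RPKM ratio with a pseudocount of 1 is 0.24.

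The zinc finger gene fezf2 (ENSDARG00000070677), a regulator of forebrain patterning and neuron identity, had 22.3 RPKM at 10 hpf and was listed at 0 at 6 hpf. Its 10 hpf level corresponds to 518 reads per kilobase. In the authors' deposited table its log2 fold is 7.82, which ranks 6th from the top among all 35117 genes, and its conservative log2 fold is 5.73. Folds of genes listed at 0 at 6 hpf depend on how the authors' method treats a 0, so their size and rank are a description of that table. Of this pair of forebrain genes, hesx1 was thus the one listed above 0 at 6 hpf, and fezf2 had the higher level at 10 hpf. A listed 0 may be a failed estimate, so no difference in timing is read from it.

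Both Otx members rose. The homeobox gene otx1b (ENSDARG00000094992; otx1 in RefSeq) had 58.8 RPKM at 10 hpf (interval 55.6 to 62.1) and 13.4 RPKM at 6 hpf (interval 11.6 to 15.3). Its RPKM ratio was 4.39, with an interval of 3.79 to 5.10. The homeobox gene otx2 (ENSDARG00000011235; otx2b in RefSeq), required for forebrain and midbrain in vertebrates, had 56.8 RPKM at 10 hpf (interval 54.8 to 58.8) and 7.46 RPKM at 6 hpf (interval 6.66 to 8.34). Its RPKM ratio was 7.60, with an interval of 6.77 to 8.57. The intervals of both genes overlap at 10 hpf and do not overlap at 6 hpf, where otx1b was higher. The intervals of their ratios do not overlap either, so the larger increase of otx2 exceeds counting error, while variation between embryos or libraries could not be assessed. The authors' deposited table lists log2 folds of 1.47 for otx1b and 2.29 for otx2, with false discovery rates of 0.00118 and 0.000599.

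The closest relative of these genes behaved differently. The gene deposited as otx1a (ENSDARG00000030703; otx2a in RefSeq) had 38.2 RPKM at 10 hpf and 32.1 RPKM at 6 hpf, and was not called. Over these 3 Otx genes the summed level was 153.7 RPKM at 10 hpf and 53.0 RPKM at 6 hpf. The share of otx1a in that sum was 24.8% at 10 hpf and 60.6% at 6 hpf. The share of otx2 was 36.9% at 10 hpf and 14.1% at 6 hpf, and that of otx1b was 38.2% and 25.3% at the same stages.

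The Gbx genes, which mark the territory behind the Otx domain, also rose, and they did so from different listed levels at 6 hpf. The homeobox gene gbx1 (ENSDARG00000071418), used in the anterior hindbrain of the zebrafish gastrula, had 17.4 RPKM at 10 hpf (interval 15.9 to 19.0) and 3.97 RPKM at 6 hpf (interval 3.16 to 4.93). Its RPKM ratio was 4.39, with an interval of 3.47 to 5.61, and the authors' deposited table lists a log2 fold of 1.53 and a false discovery rate of 0.00204. Its paralog gbx2 (ENSDARG00000002933), a boundary and anterior hindbrain gene in vertebrates, had 10.5 RPKM at 10 hpf and was listed at 0 at 6 hpf. In the authors' deposited table its log2 fold is 7.03, which ranks 28th from the top. At 10 hpf gbx1 made up 62.3% and gbx2 37.7% of the summed Gbx level of 27.9 RPKM, whereas at 6 hpf gbx1 made up all of the 3.97 RPKM.

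The summed Otx level was 5.50 times the summed Gbx level at 10 hpf and 13.3 times at 6 hpf. Both sums were higher at 10 hpf, by a ratio of 2.90 for Otx and 7.04 for Gbx. The lower Otx-to-Gbx ratio at 10 hpf thus accompanied more Otx RNA, not less, on the RPKM scale. These 6 hpf values take gbx2 at its listed 0.

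**Figure D2:**
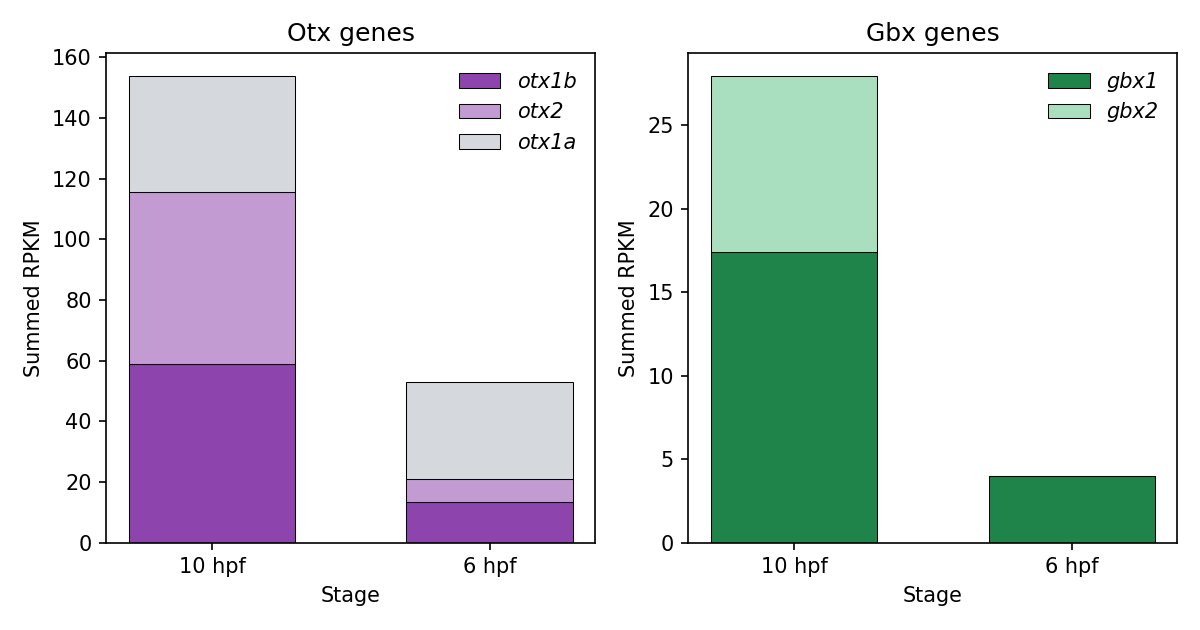
Summed RPKM of the Otx genes (left) and Gbx genes (right) at 10 hpf and 6 hpf, stacked by gene, with 1 value per gene and stage and separate axes. The gene otx1a is the largest Otx part at 6 hpf and the smallest at 10 hpf, and gbx2 is present in the 10 hpf bar alone.

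The boundary gene en2b (ENSDARG00000038868), a homeobox gene of the Engrailed family, had 0.0236 RPKM at 10 hpf and was listed at 0 at 6 hpf. The smallest read number that gives the 10 hpf value is 1, for a gene of 1825 bases, so no direction is given. Its paralog en2a (ENSDARG00000026599) had 2.44 RPKM at 10 hpf and was listed at 0 at 6 hpf, and it was called higher. Of the other Engrailed genes, en1a was listed at 0 at both stages, and en1b had 0.0965 RPKM at 10 hpf and 0.302 RPKM at 6 hpf, a difference called lower that was not kept after centring. Engrailed RNA at 10 hpf was thus mostly that of en2a.

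The hindbrain segment genes rose and stayed low. The zinc finger gene egr2b (ENSDARG00000042826, also called krox20), which defines alternating rhombomeres, had 2.11 RPKM at 10 hpf (interval 1.72 to 2.57) and was listed at 0 at 6 hpf. The bZIP gene mafba (ENSDARG00000017121, also called valentino), which acts in the posterior rhombomeres, had 2.44 RPKM at 10 hpf (interval 2.09 to 2.82) and 0.205 RPKM at 6 hpf (interval 0.102 to 0.366). The mafba values correspond to at least 179 reads at 10 hpf and 11 reads at 6 hpf, for an RPKM ratio of 11.9 with an interval of 6.49 to 24.3. The authors' deposited table lists log2 folds of 4.84 for egr2b and 2.86 for mafba. The intervals of these genes overlap at 10 hpf, and a difference between their levels at that stage was not tested.

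The relatives of the hindbrain genes were divided. The mafba paralog mafbb had 1.23 RPKM at 10 hpf and 0.174 RPKM at 6 hpf and was not called. The relative deposited as mafa (ENSDARG00000015890) was called higher, at 9.64 RPKM at 10 hpf and 0.400 RPKM at 6 hpf. The egr2b paralog egr2a is deposited under a pair of identifiers, each below 0.1 RPKM at both stages, and reads of the copies may be shared. The immediate early gene egr1 was called higher, at 1.04 RPKM at 10 hpf and 0.168 RPKM at 6 hpf. Both identifiers of egr2a and the genes egr3, egr4, crx, otx5, fezf1 and mafaa were not called and had at most 0.135 RPKM at either stage. Of all 15 identifiers of relatives found, with egr2a counted under both of its own, 3 (20%) were called higher and 1 lower, and 11 had no call. The share called higher was 9.70% over all genes and 16.3% over those at 1 RPKM or more at either stage. That level was reached by 5 of the relatives. The log2 folds of all 15 identifiers in the authors' deposited table have a median of 0.66. This is the fold of fezf1, at 0.0416 RPKM at 10 hpf and listed at 0 at 6 hpf, so no direction is read from it.

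In order of level at 10 hpf, the genes were otx1b, otx2, fezf2, gbx1, gbx2, hesx1, mafba, egr2b and en2b. Neighbours in this order whose counting intervals overlap were otx1b and otx2, gbx2 and hesx1, and mafba and egr2b. At 6 hpf the order was otx1b, hesx1, otx2, gbx1 and mafba, followed by the 4 genes listed at 0. The intervals of hesx1 and otx2 overlap at 6 hpf. With a listed 0 taken as 0 reads, the interval of mafba overlaps those of the genes listed at 0. Overlap is no test of a difference, and these intervals rest on the smallest candidate read numbers. Whether mafba lay above the genes listed at 0 was therefore not tested. Summed by territory, the forebrain pair had 31.7 RPKM at 10 hpf and 7.85 RPKM at 6 hpf. The sum of otx1b and otx2 was 115.5 RPKM at 10 hpf and 20.9 RPKM at 6 hpf. The Gbx pair had 27.9 RPKM at 10 hpf and 3.97 RPKM at 6 hpf, and the hindbrain pair had 4.55 RPKM at 10 hpf and 0.205 RPKM at 6 hpf. On the RPKM scale, the ratios of these sums were 4.04, 5.54, 7.04 and 22.2 from forebrain to hindbrain. The boundary gene en2b, at the level of a single read, was left out of this series. Each sum rests on 2 genes and 1 value per stage, and those at 6 hpf take fezf2, gbx2 and egr2b at their listed 0. The forebrain sum joins hesx1, which was not called, with fezf2, which was listed at 0 at 6 hpf, so the order of the ratios describes these genes and not whole territories. With otx1a added to otx1b and otx2, the Otx ratio was 2.90, below that of the forebrain pair, so the order depends on the genes chosen.

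Over the 9 genes, the folds listed in the authors' deposited table have a log2 median of 2.29. The same median is −0.11 over all genes and −0.41 over those at 1 RPKM or more. The fold there lies 0.60 below the log2 RPKM ratio at 7009 genes above 5 RPKM at both stages, so its zero point is not that of the RPKM values. Relative to the median of genes at 1 RPKM or more, the folds of fezf2, gbx2 and egr2b are 8.23, 7.45 and 5.25 on the log2 scale, and that of hesx1 is 0.10.

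**Figure D3:**
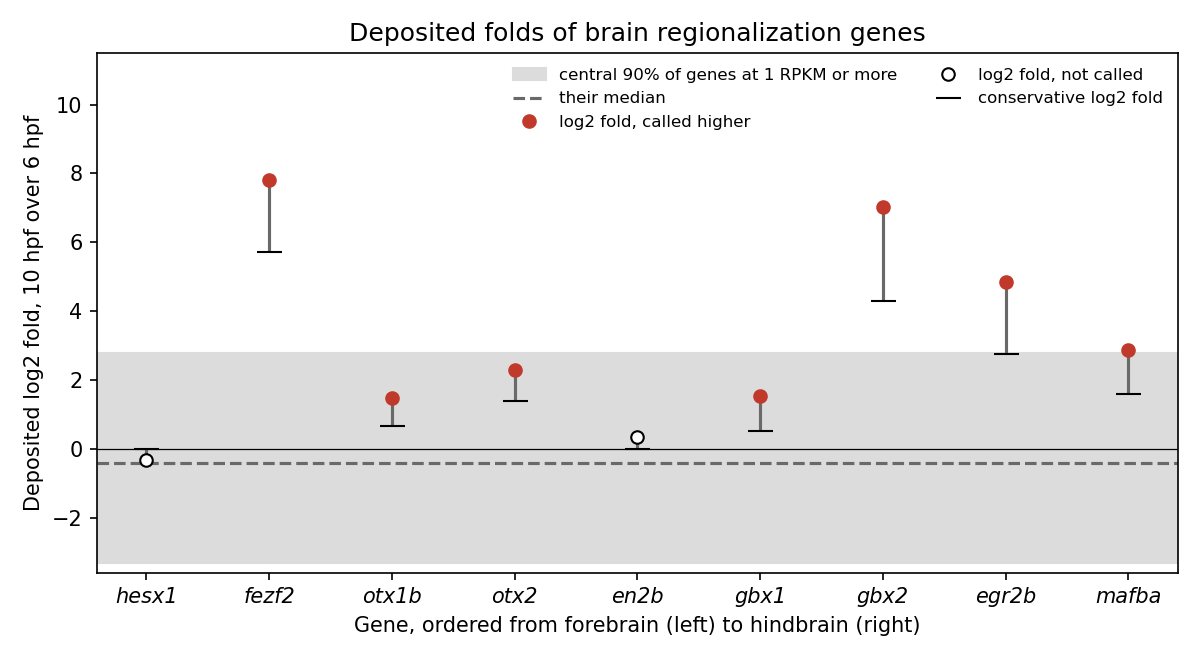
Log2 fold of 10 hpf over 6 hpf in the authors' deposited table (circles) and its conservative bound (dashes) for each gene from forebrain to hindbrain. The grey band holds the central 90% of genes at 1 RPKM or more, and the dashed line is their median of −0.41. The folds of fezf2, gbx2, egr2b and mafba lie above the band, and those of hesx1 and en2b lie near 0 and were not called.

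Other genes linked to the same territories were counted from 3 lists, without the 9 genes above. Their RNA came from whole embryos, so the levels below cannot be assigned to a brain territory. In the forebrain list 17 of 30 genes were called higher and 3 lower, and 10 had no call. The log2 folds that the authors' deposited table gives for this list have a median of 2.59. The homeobox gene six3b, used in forebrain and eye, had 70.2 RPKM at 10 hpf and 4.45 RPKM at 6 hpf. Its relative six7 had 33.9 RPKM at 10 hpf and 2.13 RPKM at 6 hpf, and the eye-field gene rx3 had 61.8 and 0.0417 RPKM at the same stages. All 3 were called higher. The gene tcf7l1a, a repressor of Wnt target genes that the zebrafish forebrain needs, fell to 22.3 RPKM at 10 hpf, against 66.5 RPKM at 6 hpf. The secreted Wnt antagonist genes sfrp1a and dkk1b were not called, at 58.3 and 21.8 RPKM at 10 hpf and 67.0 and 9.57 RPKM at 6 hpf. The list therefore held members with rising, falling and uncalled levels.

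In the list of midbrain and midbrain-hindbrain boundary, 11 of 26 genes were called higher and 3 lower, and 12 had no call. The median of their log2 folds, as the authors' deposited table lists them, is 1.20. None of the 3 lower calls was kept after centring on the median gene. The Hairy-related repressor gene her9 had 78.7 RPKM at 10 hpf and 6.56 RPKM at 6 hpf. Its relative her5, which marks the boundary region, had 25.6 RPKM at 10 hpf and 0.577 RPKM at 6 hpf, and the paired-box gene pax8 had 22.6 and 0.0495 RPKM at the same stages. These 3 genes were called higher. The Sp-family gene sp5l had 70.8 RPKM at 10 hpf and 84.1 RPKM at 6 hpf and was called lower before centring. The boundary signal gene fgf8a and its feedback inhibitor gene spry4 were not called, at 39.2 and 25.4 RPKM at 10 hpf and 16.9 and 8.94 RPKM at 6 hpf.

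In the hindbrain list 18 of 30 genes were called higher and 2 lower, and 10 had no call. Here the log2 folds listed by the authors' deposited table have a median of 3.44. The anterior Hox gene hoxb1b had 123.1 RPKM at 10 hpf and 0.953 RPKM at 6 hpf. The Hox cofactor gene meis3 had 40.0 RPKM at 10 hpf and 0.700 RPKM at 6 hpf, and the Iroquois gene irx1b had 56.6 and 16.7 RPKM at the same stages. All 3 were called higher. They were named for the highest levels among the called genes of the list. That they lie above mafba and egr2b at 10 hpf therefore says nothing about the list. The Hox cofactor gene pbx4, at 104.9 RPKM at 10 hpf and 127.2 RPKM at 6 hpf, was called lower before centring. The Iroquois gene irx7 and cyp26a1, which encodes an enzyme that degrades retinoic acid, were not called, at 125.2 and 112.9 RPKM at 10 hpf and 46.4 and 51.0 RPKM at 6 hpf. The share called higher was 56.7% in the forebrain list, 42.3% in the midbrain and boundary list and 60.0% in the hindbrain list. It was 9.70% over all genes and 16.3% over those at 1 RPKM or more at either stage. In the lists, 22 of 30, 18 of 26 and 25 of 30 genes reached that level. The lists were chosen with earlier results of these data known. Differences between the lists were not tested.

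**Figure D4:**
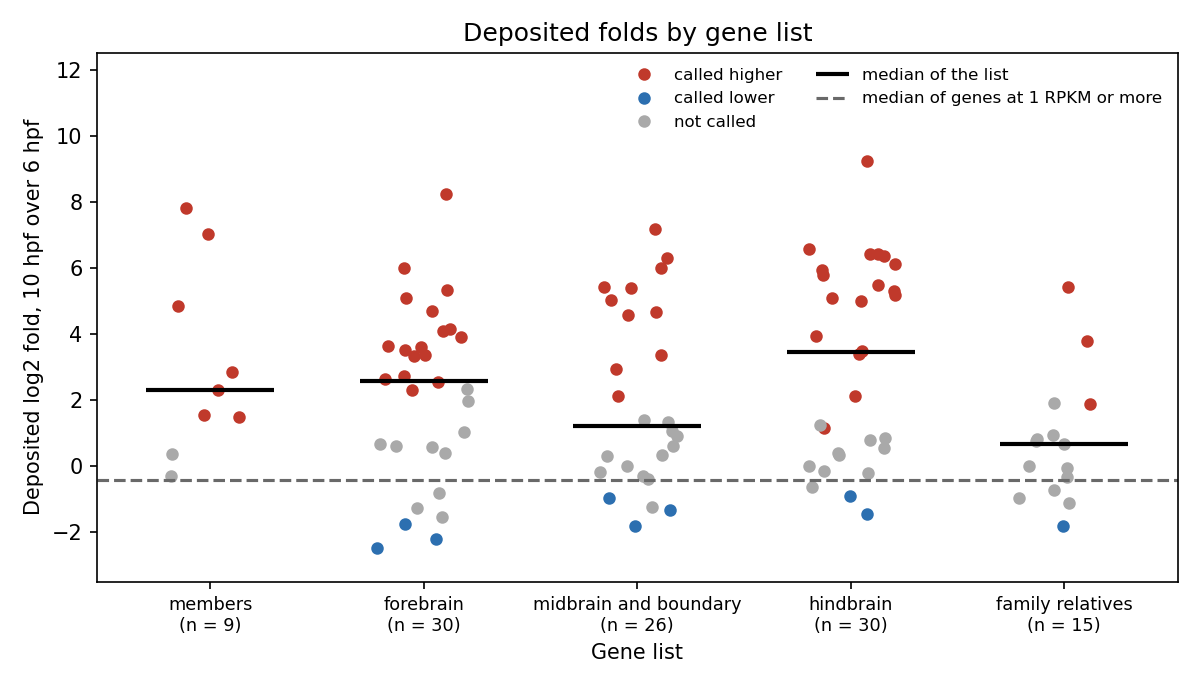
Log2 fold, 10 hpf over 6 hpf, in the authors' deposited table for the 9 genes (members), 3 territory lists and the family relatives. Each point is 1 gene identifier in a list, coloured by call. The relatives share en1a, en1b and en2a with the midbrain and boundary list, and fezf1 with the forebrain list. Thick lines are list medians over all genes of a list, with no minimum level (2.29, 2.59, 1.20, 3.44 and 0.66). The median is −0.11 over all genes and −0.41 over genes at 1 RPKM or more (dashed). The median of the relatives is the fold of fezf1, a gene near the floor at both stages.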

How the data were processed

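RNA of whole embryos was sequenced from 1 library at 6 hpf and 2 libraries at 10 hpf. The submitters' processing notes name TopHat2 2.1.1 and the genome build GRCz10. The sources used here do not state the read counter or annotation. The authors deposited RPKM as 1 value per stage, per the file headers. The authors also deposited a log2 fold of 10 hpf over 6 hpf and a conservative one (GFOLD), per the file headers. Their empirical false discovery rate, a q-value-like column, was deposited with them, per the file headers, and no test of the difference was made here. A listed 0 may be a failed estimate, so no RPKM ratio of a single gene is given against it. Deposited folds against a 0 are printed as the authors list them. Sums over genes take it as 0, and counting intervals take it as 0 reads.

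Depth was fitted to the steps of 5S rRNA genes. A match was an implied length within 0.01 bases of a whole number. On this rule, 95.2% of 105 values at 10 hpf and 95.5% of 179 values at 6 hpf were whole reads. The totals were fitted to these same values, so the shares are no independent check of them. Read numbers of a gene were then taken from both RPKM values, trying lengths of 700 to 7000 bases. Ratio intervals are exact binomial intervals on these reads at 95%. Genes simulated with the same totals were used to check that the true read numbers were among the candidates. Where they are, the smallest candidate cannot exceed them, so checking this as well added nothing. The simulation could not test which candidate is true, nor an error in the totals or the joining of 2 libraries. The candidate lengths numbered 2 for otx2 and 133 for fezf2.

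Genes were matched by deposited symbol, then by a RefSeq synonym leading to 1 gene (assembly GRCz12tu, used for names and gene order only). Of the list names, 1 midbrain and boundary, 1 hindbrain and 2 relatives were not matched. Members and lists were chosen with earlier results of these data known. From each territory list, the 4 called genes with the highest level and the 2 uncalled genes with the highest level were named, and all relatives. For centring, −0.50, the median of the deposited log2 folds above a 5 RPKM minimum, was subtracted from all folds, and a lower call was kept if its conservative fold remained negative. Alternatives were a false discovery rate of 0.01, minima of 1 and 5 RPKM, a log2 fold of 1, centred folds, and pseudocounts of 0.1, 1 and 5. Python 3.11.15, pandas 2.3.3 and scipy 1.17.1 were used.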

Additional observations from a re-analysis of the deposited data

How the results depend on the processing

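Centring could not remove a higher call. A minimum log2 fold of 1 could remove little, as the smallest among all higher calls in the whole table was 0.83. The count of 7 genes called higher and 0 called lower was unchanged under both. It was also unchanged at a false discovery rate of 0.01. It was also 7 with a minimum of 1 RPKM at either stage, a filter that fezf2, gbx2, egr2b and mafba passed through 10 hpf alone and that says nothing about their stability. It was 5 with a minimum of 5 RPKM at either stage, which fezf2, gbx1 and gbx2 passed through 10 hpf alone. That count, and the medians under either minimum given next, likewise say nothing about stability. The count was 6 among the 7 genes matched by deposited symbol, an alternative chosen after seeing the data. The median log2 fold of 2.29 was 2.79 after centring, 2.57 and 1.91 over genes at 1 and 5 RPKM or more, and 2.86 over the genes matched by symbol. On the RPKM ratio it was 2.91, 1.89 and 1.32 with pseudocounts of 0.1, 1 and 5. For hesx1 the deposited log2 fold of −0.32 has the opposite sign to the RPKM ratio, because of the different scale factors, and no other gene of the 9 changed sign. Lower calls in the midbrain and boundary list were 1 at a false discovery rate of 0.01 and 0 after centring, and those in the hindbrain list were 1 under either. No paired analysis was possible because the table gives 1 value per stage, and for the same reason no replicate could be left out. For fezf2, gbx2, egr2b, mafba and en2b, with few or no reads at 6 hpf, depth limits the precision of any fold.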

Other observations

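Genes next to the 9 brain regionalization genes were looked up by gene order in the RefSeq assembly GRCz12tu, which is not the build of the deposited table. Of the 18 nearest measured protein-coding neighbours, 2 were called higher and 3 lower, and 13 had no call. The log2 folds that the authors' deposited table gives for them have a median of −0.09. The 2 higher neighbours, named after their values were seen, were ehbp1 beside otx1b, at 4.79 RPKM at 10 hpf and 0.739 RPKM at 6 hpf, and agap1 beside gbx2, at 3.38 RPKM at 10 hpf and 0.465 RPKM at 6 hpf. The share called higher in the whole table is 9.70%. A neighbour of en2b is cnpy1, a gene of FGF signalling at the midbrain-hindbrain boundary, which was not called at 11.4 RPKM at 10 hpf and 6.41 RPKM at 6 hpf.

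The genes nearest in level over both stages were taken from 7601 genes at 5 RPKM or more, by distance in log2(RPKM + 1). For fezf2 these were hoxc6b and hoxa9a, at distances of 0.05 each, both listed at 0 at 6 hpf. For gbx2 they were dhrs3a and cideb, at 0.01 each, and for gbx1 raraa and psmg2, at 0.01 and 0.04. Those of otx1b were dag1 and atp5f1, at 0.03 and 0.12, and those of otx2 were metap1 and a gene annotated TUBB4A (1 of many), at 0.11 and 0.13. Likeness over 2 stages is common: between 21 genes for otx2 and 171 genes for gbx1 lay within a distance of 0.5.

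The RPKM ratios of otx1b and gbx1 were both 4.39, although their levels differ. The smallest read numbers that give the values were 1266 at 10 hpf and 211 at 6 hpf for otx1b, and 492 at 10 hpf and 82 at 6 hpf for gbx1.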
